A study of Mus musculus with 14 samples.

Results

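The genes described here are 8 members of the Notch pathway and of the switch that sets absorptive against secretory fate in the intestinal crypt: the receptors Notch1 and Notch2, the ligands Dll1, Dll4 and Jag1, the target Hes1 and the secretory factors Atoh1 and Gfi1. They were chosen by name, from a table of 18781 genes measured by RNA sequencing in 14 libraries of mouse small intestinal organoids, and 7 of the 8 had a row in that table. The table analysed here held no row for Atoh1, so no level of Atoh1 is given. Of the genes with a row, Dll1 carried the clearest difference between genotypes: it was higher in Rnaseh2bΔIEC and in Atg16l1ΔIEC organoids than in WT organoids. Its difference from WT did not pass the test in organoids with both deletions, where Atg16l1 and Rnaseh2b were less depleted than in the other knockouts. The call in Rnaseh2bΔIEC organoids was kept when libraries that deviate together were treated as correlated (adjusted p = 0.00506, limma), whereas that in Atg16l1ΔIEC organoids was not (adjusted p = 0.0506). The Rnaseh2bΔIEC call was lost when such libraries were averaged (adjusted p = 0.134, limma), where the Rnaseh2bΔIEC libraries form a single pair. Lane cannot be told apart from genotype in either comparison.

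A crypt cell sends the Notch signal when it shows a delta-like or Jagged ligand on its surface, and its neighbour receives it through a Notch receptor, which is cut so that its inner part enters the nucleus and joins RBPJ. There the signal raises repressors of the Hes family, of which Hes1 is the main intestinal one, and these hold down Atoh1, the factor that commits a cell to the secretory lineages. Cells with a high signal take the absorptive fate or remain stem cells, whereas cells that escape the signal turn on Atoh1, raise Dll1 and Dll4 themselves, and become goblet, Paneth, enteroendocrine or tuft cells. Gfi1 acts after Atoh1 and steers secretory cells away from the enteroendocrine fate and towards goblet and Paneth cells.

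The 14 libraries came from untreated organoids and fell into 4 genotypes. The 4 WT libraries carried floxed alleles of both genes (labelled ATG16L1flox/flox_RNaseH2Bflox/flox) and no Cre. The other genotypes carried VillinCre+/-, a Cre driven by the Villin promoter and so active in the intestinal epithelium, with floxed alleles of RNaseH2B (Rnaseh2bΔIEC, 2 libraries), of ATG16L1 (Atg16l1ΔIEC, 4 libraries) or of both (Atg16l1/Rnaseh2bΔIEC, 4 libraries). Rnaseh2b encodes a subunit of the ribonuclease that removes ribonucleotides from DNA, and Atg16l1 encodes a core autophagy protein. Organoids hold epithelium alone and are grown from crypts in medium that keeps stem cells dividing. The age of the donor mice was not given for the organoids, and whether libraries of a genotype came from separate mice or cultures was not stated either, so p-values measure only the spread between these libraries.

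The targeted genes and the layout of the libraries bear on every value below. Atg16l1 fell by 2.54 ± 0.12 (SE, log2) in Atg16l1ΔIEC but by 1.07 ± 0.12 in Atg16l1/Rnaseh2bΔIEC organoids, and Rnaseh2b fell by 1.36 ± 0.092 in Rnaseh2bΔIEC but by 0.73 ± 0.075 in Atg16l1/Rnaseh2bΔIEC organoids, so that both genes were less depleted in the organoids with both deletions (adjusted p = 1.96e-05 and 0.00074, limma). All 4 WT libraries were sequenced in lane 1 and all Rnaseh2bΔIEC and Atg16l1ΔIEC libraries in lane 2, while Atg16l1/Rnaseh2bΔIEC replicates 1 and 2 were in lane 2 and replicates 3 and 4 in lane 1. Lane and genotype therefore cannot be told apart in a comparison of either of the other knockouts with WT. Within WT, Atg16l1ΔIEC and Atg16l1/Rnaseh2bΔIEC, replicates 1 and 2 deviated from the mean of their genotype together, as did 3 and 4 (r = 0.31 to 0.85 across genes over 6 pairs, with r between -0.89 and -0.63 for the 12 other pairings within a genotype). Centring on the genotype mean by itself pushes correlations within a genotype below 0, so the negative range is no separate measure of the pairing. A fit that lets such pairs be correlated, with the correlation estimated at 0.65, is therefore given as the pair-correlated fit, by its adjusted p for calls of the members and by the number of calls left for the other gene lists. Both Rnaseh2bΔIEC libraries enter that fit as a single pair, so the spread between pairs was not measured in this genotype. Epithelial markers were high in all genotypes, with a log2 of their summed level of 16.90 to 16.99, although Krt20 and Vil1, which mark mature cells most, rose in Rnaseh2bΔIEC organoids by 0.45 and 0.27 (adjusted p = 0.0321 and 0.0261). The immune markers Ptprc and Cd3e and the stromal markers Col1a1 and Col1a2 were under the filter on low values, with mean log2 levels of 0.49, -1.33, 2.08 and -1.33, while the endothelial marker Pecam1 had a mean of 4.37.

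Differences are given on the log2 scale of the table, with the standard error (SE) from limma, and were called where the Benjamini-Hochberg adjusted p over 12802 tested genes was under 0.05. All 7 members with a row passed the filter for testing, a mean of at least 10 on the linear scale. In bulk organoids, fewer cells of a type and less RNA per cell cannot be told apart.

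The promoters of Dll1 and Dll4 are shown because these delta-like ligands had calls in opposite directions in Atg16l1ΔIEC organoids. Neither call held in the pair-correlated fit (adjusted p = 0.0506 for Dll1 and 0.245 for Dll4, limma) or with a term for lane (0.0906 and 0.394). Both sequences are the 250 bases upstream of a RefSeq start site in GRCm38.p6, read 5′ to 3′ on the gene's own strand. That of Dll1 is chr17:15376933-15377182 on the minus strand, and that of Dll4 is chr2:119325534-119325783 on the plus strand. Capitals mark the motifs that were searched for and found on either strand, the E-box CAGCTG in Dll1 and an N-box in Dll4. Of the E-boxes (CANNTG) only CAGCTG and CACGTG were searched for, so others, such as catgtg and caggtg in Dll1, stay in lower case.
Dll1: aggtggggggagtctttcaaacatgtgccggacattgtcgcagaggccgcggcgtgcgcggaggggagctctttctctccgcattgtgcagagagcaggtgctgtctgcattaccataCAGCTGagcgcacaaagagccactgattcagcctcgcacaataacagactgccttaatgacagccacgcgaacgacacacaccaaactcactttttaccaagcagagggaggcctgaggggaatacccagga
Dll4: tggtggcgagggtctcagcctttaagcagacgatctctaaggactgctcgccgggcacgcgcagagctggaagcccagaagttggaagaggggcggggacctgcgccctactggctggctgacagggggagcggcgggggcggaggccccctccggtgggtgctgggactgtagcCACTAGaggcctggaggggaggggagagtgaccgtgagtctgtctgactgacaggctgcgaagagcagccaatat
E-boxes are the sites of basic helix-loop-helix activators such as ATOH1, and N-boxes those of Hes repressors. The E-box CAGCTG stood in 13% of 32851 mouse promoter windows of this length and the N-box CACNAG in 36.7%. Among the windows of the members, CAGCTG also occurred upstream of Jag1 and CACNAG upstream of Notch1 and Notch2, and the upstream windows of Gfi1 and Atoh1 held neither. No window of a member held TGGGAA, the core of the RBPJ site, found in 21.6% of all windows, or the E-box CACGTG, found in 6.0%. A second Dll1 window, upstream of a start site inside the gene, held none of the 4 motifs. The table of promoters had no entry for Hes1.

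Per kilobase of annotated exon, and averaged over all libraries, Hes1 was the most abundant member, at a log2 level of 9.27. The ligand Dll1 followed at 7.36, Jag1 at 6.80, Notch1 at 6.63, Dll4 at 6.09 and Notch2 at 5.64, and Gfi1 was far below the others at 3.21. Levels between genes are compared only on this scale, which divides by the summed length of all annotated exons, whichever isoforms the organoids use. All values that follow are log2 levels without division by length, or differences between such levels.

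Dll1, a ligand shown by young secretory cells to their neighbours, separated the genotypes best. Its levels were 9.22, 9.32, 9.15 and 9.26 in the WT libraries and 9.79 and 9.77 in the Rnaseh2bΔIEC libraries. They were 9.43, 9.44, 9.67 and 9.61 in Atg16l1ΔIEC and 9.40, 9.41, 9.39 and 9.33 in Atg16l1/Rnaseh2bΔIEC organoids. Every knockout library thus lay above every WT library, both Rnaseh2bΔIEC libraries lay above all others, and the 4 Atg16l1/Rnaseh2bΔIEC libraries lay below the 4 Atg16l1ΔIEC libraries. Dll1 rose in Rnaseh2bΔIEC organoids, by 0.55 ± 0.067 (1.46-fold, adjusted p = 0.000168, limma; pair-correlated fit, adjusted p = 0.00506). It rose in Atg16l1ΔIEC organoids as well, by 0.30 ± 0.055 (adjusted p = 0.00243), but not in the pair-correlated fit (adjusted p = 0.0506), nor in a fit with a term for lane (adjusted p = 0.0906). The difference of Atg16l1/Rnaseh2bΔIEC organoids from WT was 0.15 ± 0.055 (95% interval 0.03 to 0.27, adjusted p = 0.0809). Dll1 was lower in these organoids than in Rnaseh2bΔIEC organoids, by -0.40 ± 0.067 (adjusted p = 0.00149; pair-correlated fit, adjusted p = 0.0272). Against Atg16l1ΔIEC the difference of -0.15 ± 0.055 had an adjusted p = 0.0534.

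**Figure D1:**
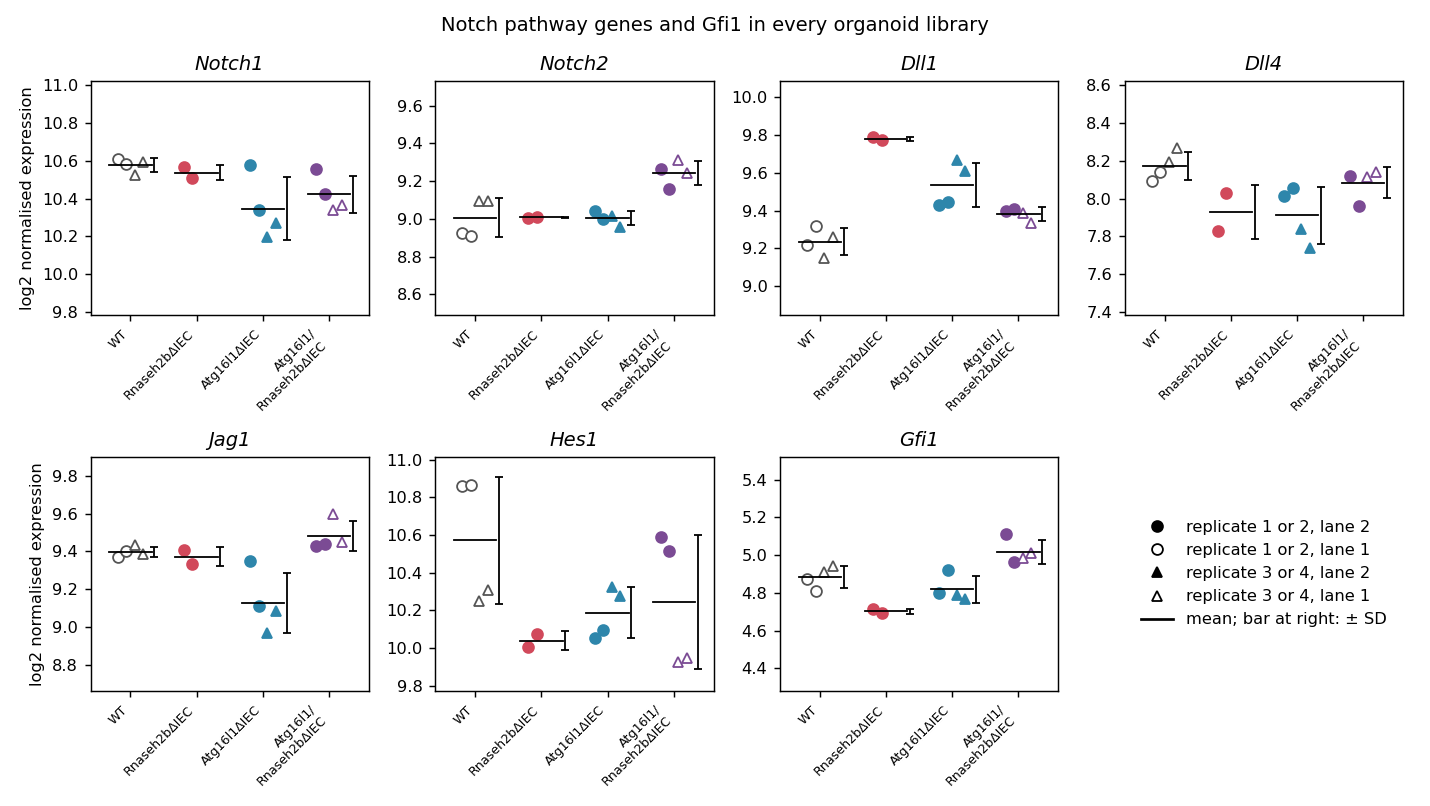
Each panel plots the log2 normalised expression of 1 gene (y axis, the same span of 1.24 in every panel) in the 14 libraries by genotype (x axis), with circles for replicates 1 and 2, triangles for replicates 3 and 4, open symbols for lane 1 and filled symbols for lane 2; lines are means and bars ± SD. Dll1 in both Rnaseh2bΔIEC libraries lies above all other libraries, and Hes1 in WT and Atg16l1/Rnaseh2bΔIEC organoids splits by pair.

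The plot of the members by library also shows Dll4, the other delta-like ligand of the crypt. Its levels were 8.10, 8.14, 8.20 and 8.27 in WT, 7.83 and 8.03 in Rnaseh2bΔIEC, 8.01, 8.06, 7.84 and 7.74 in Atg16l1ΔIEC and 8.12, 7.96, 8.11 and 8.14 in Atg16l1/Rnaseh2bΔIEC organoids. All libraries of the knockouts of 1 gene lay below all WT libraries, and those of Atg16l1/Rnaseh2bΔIEC overlapped both. Dll4 fell by 0.26 ± 0.077 in Atg16l1ΔIEC organoids (adjusted p = 0.0289, limma), where Dll1 had risen. That call was lost in the pair-correlated fit (adjusted p = 0.245), in the fit with a term for lane (0.394) and on leaving out WT replicate 2 (0.051), 3 (0.0651) or 4 (0.0763) or Atg16l1ΔIEC replicate 3 (0.0785) or 4 (0.0884). In Rnaseh2bΔIEC organoids its difference from WT was -0.25 ± 0.094 (adjusted p = 0.0668), and in Atg16l1/Rnaseh2bΔIEC organoids it was -0.09 ± 0.077 (adjusted p = 0.433).

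Jag1, a Notch ligand of the Jagged family, was lower in Atg16l1ΔIEC organoids than in WT and in Atg16l1/Rnaseh2bΔIEC organoids. The levels were 9.37, 9.40, 9.43 and 9.39 in WT and 9.41 and 9.33 in Rnaseh2bΔIEC organoids, against 9.35, 9.11, 8.97 and 9.09 in Atg16l1ΔIEC and 9.43, 9.44, 9.60 and 9.45 in Atg16l1/Rnaseh2bΔIEC organoids. The 4 Atg16l1ΔIEC libraries lay below the WT libraries and below the Atg16l1/Rnaseh2bΔIEC libraries. Jag1 fell by 0.27 ± 0.067 against WT (adjusted p = 0.0131, limma; pair-correlated fit, adjusted p = 0.208; lane as a covariate, 0.304). It was 0.35 ± 0.067 higher in Atg16l1/Rnaseh2bΔIEC than in Atg16l1ΔIEC organoids (adjusted p = 0.003; pair-correlated fit, adjusted p = 0.0817). Its differences from WT were -0.03 ± 0.082 in Rnaseh2bΔIEC and 0.08 ± 0.067 in Atg16l1/Rnaseh2bΔIEC organoids, and neither passed the test.

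The receptors Notch1 and Notch2, which act together in the crypt, passed the test in separate genotypes, Notch1 as lower and Notch2 as higher. Notch1 measured 10.61, 10.58, 10.53 and 10.60 in WT, 10.57 and 10.51 in Rnaseh2bΔIEC, 10.58, 10.34, 10.20 and 10.27 in Atg16l1ΔIEC and 10.56, 10.43, 10.34 and 10.36 in Atg16l1/Rnaseh2bΔIEC organoids. Replicate 1 of Atg16l1ΔIEC lay among the WT libraries, while the other 3 lay below them. Notch1 fell by 0.23 ± 0.069 in Atg16l1ΔIEC organoids (adjusted p = 0.0334, limma; pair-correlated fit, adjusted p = 0.27). The call was lost without WT replicate 1 (0.0722), 2 (0.0679) or 4 (0.0694) and without Atg16l1ΔIEC replicate 2 (0.0621), 3 (0.0975) or 4 (0.094). In Atg16l1/Rnaseh2bΔIEC organoids the difference from WT was -0.16 ± 0.069 (adjusted p = 0.136; pair-correlated fit, adjusted p = 0.502). Within lane 1, where replicates 3 and 4 stood beside WT, it was -0.23 (adjusted p = 0.0103, limma), in a fit that takes the libraries of a pair as independent.

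Notch2 was higher in Atg16l1/Rnaseh2bΔIEC organoids than in each of the other genotypes. Its levels were 8.92, 8.91, 9.09 and 9.10 in WT, 9.01 and 9.01 in Rnaseh2bΔIEC and 9.04, 9.002, 9.02 and 8.96 in Atg16l1ΔIEC organoids. In Atg16l1/Rnaseh2bΔIEC organoids they were 9.26, 9.16, 9.31 and 9.24, with no overlap with any other library. Notch2 rose by 0.24 ± 0.051 against WT (1.18-fold, adjusted p = 0.00942, limma). It was 0.24 ± 0.062 above Rnaseh2bΔIEC (adjusted p = 0.0155) and 0.24 ± 0.051 above Atg16l1ΔIEC (adjusted p = 0.00566). In the pair-correlated fit the adjusted p-values of the 3 differences were 0.139, 0.143 and 0.0817, and within lane 1 the difference from WT was 0.27 (adjusted p = 0.0542). The difference from Rnaseh2bΔIEC lost its call when either Rnaseh2bΔIEC replicate 1 (0.0939) or 2 (0.113) was left out. The mean levels in WT, Rnaseh2bΔIEC and Atg16l1ΔIEC, 9.01, 9.01 and 9.004, did not differ beyond their spread.

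Hes1, the repressor that reads out the Notch signal, spread widely within WT and Atg16l1/Rnaseh2bΔIEC organoids, with an SD of 0.338 and 0.356. The SD was smaller in Rnaseh2bΔIEC (0.051) and Atg16l1ΔIEC organoids (0.133). The 4 WT libraries measured 10.86, 10.86, 10.25 and 10.31, the Rnaseh2bΔIEC libraries 10.004 and 10.08, the Atg16l1ΔIEC libraries 10.06, 10.10, 10.33 and 10.28, and the Atg16l1/Rnaseh2bΔIEC libraries 10.59, 10.52, 9.93 and 9.95. In WT and Atg16l1/Rnaseh2bΔIEC organoids, replicates 1 and 2 were high and replicates 3 and 4 low, with pair means of 10.86 against 10.28 and of 10.55 against 9.94. In Atg16l1ΔIEC organoids replicates 3 and 4 were the higher ones (10.30 against 10.08). The WT pairs shared lane 1 and the Atg16l1ΔIEC pairs shared lane 2, so these splits were measured within a lane as well. The Hes1 level differed from WT by -0.53 ± 0.21 in Rnaseh2bΔIEC (95% interval -0.98 to -0.08, adjusted p = 0.0785, limma), by -0.38 ± 0.17 in Atg16l1ΔIEC (adjusted p = 0.135) and by -0.33 ± 0.17 in Atg16l1/Rnaseh2bΔIEC organoids (adjusted p = 0.208). None of these passed the test, and the 95% intervals of the latter pair reached from -0.75 to -0.01 and from -0.70 to 0.05.

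With lane as a covariate, which is estimated from the lanes of the Atg16l1/Rnaseh2bΔIEC libraries alone and thus from their pairs, the Hes1 differences from WT were -1.146, -0.997 and -0.633 in Rnaseh2bΔIEC, Atg16l1ΔIEC and Atg16l1/Rnaseh2bΔIEC organoids, and all of them passed (adjusted p = 0.00999, 0.0129 and 0.0219, limma). Within lane 2, Hes1 was 0.51 higher in Atg16l1/Rnaseh2bΔIEC replicates 1 and 2 than in Rnaseh2bΔIEC organoids (adjusted p = 0.00908) and 0.36 higher than in Atg16l1ΔIEC organoids (adjusted p = 0.0153), whereas over all libraries these differences were 0.21 and 0.06 and did not pass (adjusted p = 0.502 and 0.835). The within-lane fit takes the libraries of a pair as independent. Replicates 3 and 4 of Atg16l1/Rnaseh2bΔIEC, in lane 1, had a Hes1 mean of 9.94, below that of Rnaseh2bΔIEC (10.04). Without WT replicate 3 the difference of Rnaseh2bΔIEC from WT was -0.64 (adjusted p = 0.0489).

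Gfi1 was the least abundant member, with levels near 5, where the spread between libraries is small in this table. Its levels were 4.88, 4.81, 4.91 and 4.94 in WT and 4.71 and 4.69 in Rnaseh2bΔIEC organoids. They were 4.80, 4.92, 4.79 and 4.77 in Atg16l1ΔIEC and 5.11, 4.97, 4.98 and 5.01 in Atg16l1/Rnaseh2bΔIEC organoids. The Rnaseh2bΔIEC libraries were the lowest of all and the Atg16l1/Rnaseh2bΔIEC libraries the highest of all. Gfi1 fell by 0.18 ± 0.056 in Rnaseh2bΔIEC organoids (adjusted p = 0.0284, limma; pair-correlated fit, adjusted p = 0.289; lane as a covariate, 0.104), a call also lost without WT replicate 3 (0.0603) or 4 (0.0648) and without Rnaseh2bΔIEC replicate 1 (0.125) or 2 (0.159). It was higher in Atg16l1/Rnaseh2bΔIEC than in Rnaseh2bΔIEC organoids by 0.32 ± 0.056 (adjusted p = 0.00197; pair-correlated fit, adjusted p = 0.0723) and than in Atg16l1ΔIEC organoids by 0.20 ± 0.046 (adjusted p = 0.00829; pair-correlated fit, adjusted p = 0.168). Against WT the difference was 0.13 ± 0.046 (adjusted p = 0.0629).

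Counted by comparison, 2 of the 7 members passed between Rnaseh2bΔIEC and WT organoids, where 26.7% of all tested genes did (14.4% higher and 12.3% lower), and 4 of 7 between Atg16l1ΔIEC and WT, where 19.1% of genes did (8.73% higher and 10.4% lower). Between Atg16l1/Rnaseh2bΔIEC and WT, 1 of 7 passed (16.1% of genes, 8.1% higher and 8.01% lower). Against Rnaseh2bΔIEC, 3 of 7 members passed in Atg16l1/Rnaseh2bΔIEC organoids (25.5% of genes, 11.1% higher and 14.4% lower), and against Atg16l1ΔIEC also 3 of 7 (25.1% of genes, 12.6% higher and 12.5% lower). These comparisons share libraries. Between Rnaseh2bΔIEC and Atg16l1ΔIEC, all in lane 2, only Dll1 passed of the 7 members (6.81% of genes, 4.34% higher and 2.47% lower), at 0.24 ± 0.067 higher in Rnaseh2bΔIEC (adjusted p = 0.0456, limma), with an adjusted p = 0.395 in the pair-correlated fit and 0.0689 within lane 2 alone. That call was also lost without either Rnaseh2bΔIEC replicate, WT replicate 1, 2 or 4, Atg16l1ΔIEC replicate 1, 2 or 4 or Atg16l1/Rnaseh2bΔIEC replicate 2, 3 or 4 (adjusted p = 0.0509 to 0.258). Libraries of the compared groups did not overlap for 55.5% of genes between Rnaseh2bΔIEC and WT for 24.6% between Atg16l1ΔIEC and WT and for 22.3% between Atg16l1/Rnaseh2bΔIEC and WT, so non-overlap alone was common. The share was 49.9% between Atg16l1/Rnaseh2bΔIEC and Rnaseh2bΔIEC, 23.9% between Atg16l1/Rnaseh2bΔIEC and Atg16l1ΔIEC and 37.8% between Rnaseh2bΔIEC and Atg16l1ΔIEC. In the pair-correlated fit only Dll1 kept a call, in 2 of these comparisons.

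**Figure D2:**
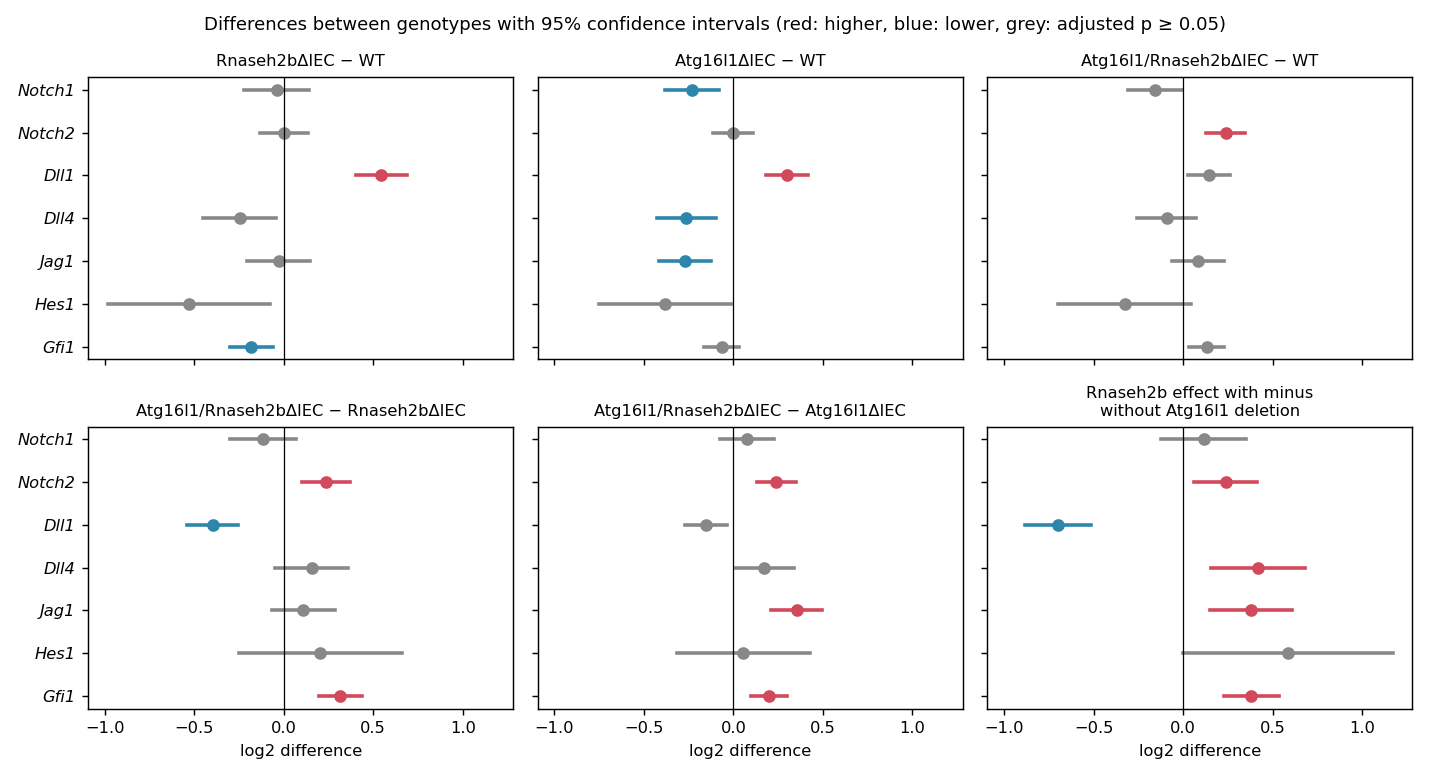
Each panel plots the log2 difference (x axis) of the 7 members (y axis) in 1 comparison, with points at the estimate and lines for the 95% confidence interval from limma; red and blue mark higher and lower values that passed the test and grey those that did not. Dll1 lies furthest from 0 among the members that passed between Rnaseh2bΔIEC and WT (0.55), and Hes1 has the widest interval in every panel.

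Whether deletion of Rnaseh2b acted alike with and without Atg16l1 was tested as a difference of differences, that is, Atg16l1/Rnaseh2bΔIEC minus Atg16l1ΔIEC, less Rnaseh2bΔIEC minus WT. Of the 7 members, 5 passed this test, where 35.1% of all genes did (17% above 0 and 18.1% below). Dll1 stood at -0.70 ± 0.086 (adjusted p = 0.000114, limma; pair-correlated fit, adjusted p = 0.00367): it was 0.55 higher after Rnaseh2b deletion when Atg16l1 was intact and 0.15 lower when it was deleted. Dll4 (0.42 ± 0.12, adjusted p = 0.0169), Gfi1 (0.38 ± 0.072, adjusted p = 0.0016), Jag1 (0.38 ± 0.105, adjusted p = 0.0138) and Notch2 (0.24 ± 0.081, adjusted p = 0.0352) stood on the other side of 0. In the pair-correlated fit the adjusted p-values of those 4 genes were 0.146, 0.0611, 0.163 and 0.20. With a term for lane they were 0.311, 0.0236, 0.316 and 0.461 (limma), so that only Gfi1 of these kept its call, as did Dll1 (adjusted p = 0.0111). The call for Dll4 was lost without Rnaseh2bΔIEC replicate 1 (0.116), that for Jag1 without Rnaseh2bΔIEC replicate 2 (0.076), and that for Notch2 without any 1 of both Rnaseh2bΔIEC replicates or replicates 3 and 4 of the other genotypes, with adjusted p between 0.0513 and 0.107. Hes1 (0.59 ± 0.27, adjusted p = 0.109) and Notch1 (0.12 ± 0.11, adjusted p = 0.436) did not pass. With the term for lane Hes1 stood at 1.509 and passed (adjusted p = 0.0101, limma). The genotypes in this test are spread unevenly over the lanes, and the lane term rests on the Atg16l1/Rnaseh2bΔIEC pairs alone. The Atg16l1 and Rnaseh2b levels left in Atg16l1/Rnaseh2bΔIEC organoids, given above, differed from those in the other knockouts, and their part in this test was not tested.

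Among the other genes of the pathway, calls went in both directions. Of 41 such genes listed, 39 had a row and 35 were tested. Between Rnaseh2bΔIEC and WT organoids, 3 rose and 6 fell, that is, 9 of 35 where 26.7% of all genes were called, with a median of -0.05 over the list against 0.00 over all genes. Neurl1b, a ubiquitin ligase that lets a ligand be taken up and so become active, rose by 0.67 ± 0.093 (adjusted p = 0.000361, limma). Numb, an endocytic adaptor that restrains Notch, rose by 0.20, and Furin, the protease that makes the first cut in the receptor, by 0.12 (adjusted p = 0.0356 and 0.0349). Mib1, also a ubiquitin ligase that activates ligands and named after its value was seen, fell by 0.25 in these organoids and by 0.16 in Atg16l1ΔIEC organoids (adjusted p = 0.000604 and 0.00455). In the pair-correlated fit 3 of the 9 calls were left, and without Rnaseh2bΔIEC replicate 2 there were 4.

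Between Atg16l1ΔIEC and WT organoids, 2 of the 35 pathway genes rose and 8 fell, where 19.1% of all genes were called (median -0.03). Neurl1b rose again, by 0.35 ± 0.076 (adjusted p = 0.00646, limma), and Furin by 0.22 (adjusted p = 0.000603). Olfm4, a stem cell gene of the crypt base that Notch raises, fell by 1.22 ± 0.28 (adjusted p = 0.00855), and Lfng, a sugar transferase that tunes the response of the receptor to its ligands, fell by 0.50 ± 0.12 (adjusted p = 0.0109). In the pair-correlated fit 3 of these 10 calls were left. Against WT, Atg16l1/Rnaseh2bΔIEC organoids had no pathway gene of the 35 that rose and 2 that fell, where 16.1% of all genes were called. Olfm4 fell by 1.505 ± 0.28 and the ubiquitin ligase Itch by 0.12 (adjusted p = 0.00491 and 0.0497, limma). In the pair-correlated fit neither call was left. Leaving out WT replicate 1, 2 or 3, either Rnaseh2bΔIEC replicate or Atg16l1ΔIEC replicate 2, 3 or 4 left 1 of the 2. Of the 6 further Notch targets listed, 4 had a row, and Olfm4 alone passed the filter on low values.

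Of the 35 pathway genes tested, Atg16l1/Rnaseh2bΔIEC organoids had 5 higher and 6 lower against Rnaseh2bΔIEC organoids, where 25.5% of all genes were called. Olfm4 was lower by -1.34 (adjusted p = 0.012, limma), Neurl1b by -0.88 (adjusted p = 0.000143) and Dtx3, of the Deltex family of Notch regulators, by -0.51 (adjusted p = 0.0223). Against Atg16l1ΔIEC organoids 7 of the 35 were higher and 4 were lower, where 25.1% of all genes were called. Notch3 led the former (0.64, adjusted p = 0.00162, limma), and Neurl1b (-0.56, adjusted p = 0.000482), Dtx3 (-0.55, adjusted p = 0.00654) and Furin (-0.25, adjusted p = 0.00036) led the latter. The pair-correlated fit left 1 of 11 and 5 of 11 calls, and the former 11 became 5 or 2 without Rnaseh2bΔIEC replicate 1 or 2. Between Rnaseh2bΔIEC and Atg16l1ΔIEC, 3 of the 35 were called, where 6.81% of all genes were. Poglut1, which adds glucose to the receptor, was 0.51 higher in Rnaseh2bΔIEC and Notch3 0.47 higher (adjusted p = 0.000613 and 0.0498, limma). Maml1, a coactivator of the nuclear complex, was lower by -0.23 (adjusted p = 0.00867). None of these 3 calls was left in the pair-correlated fit, and without Rnaseh2bΔIEC replicate 2 there was 1. In the difference of differences 9 of the 35 pathway genes were above 0 and 6 below, where 35.1% of all genes were called. Those below were led by Neurl1b (-1.23, adjusted p = 2.63e-05, limma), Dtx3 (-0.74, adjusted p = 0.00936) and Furin (-0.37, adjusted p = 0.000219). The pair-correlated fit left 6 of the 15, as leaving out Rnaseh2bΔIEC replicate 2 left 7.

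Neurl1b had its highest mean in Rnaseh2bΔIEC, followed by Atg16l1ΔIEC, as Dll1 had (the difference between the pair, 0.32, had an adjusted p = 0.059), although in Atg16l1/Rnaseh2bΔIEC organoids it stood at -0.21 from WT (adjusted p = 0.0786, limma) where Dll1 stood at 0.15. Adam10 and Adam17, proteases listed for receptor processing, were chosen here after their values were seen: they fell by 0.22 and 0.28 in Rnaseh2bΔIEC and by 0.16 and 0.38 in Atg16l1ΔIEC organoids (adjusted p = 0.00122, 0.00182, 0.0038 and 7.68e-05, limma). Furin, of the same list, rose in both genotypes, as given above. In Atg16l1/Rnaseh2bΔIEC organoids the differences of Adam10 and Adam17 from WT were -0.03 and -0.07 and did not pass. Rbpj, the DNA-binding partner of Notch, passed in no comparison (differences of -0.09 to 0.09).

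**Figure D3:**
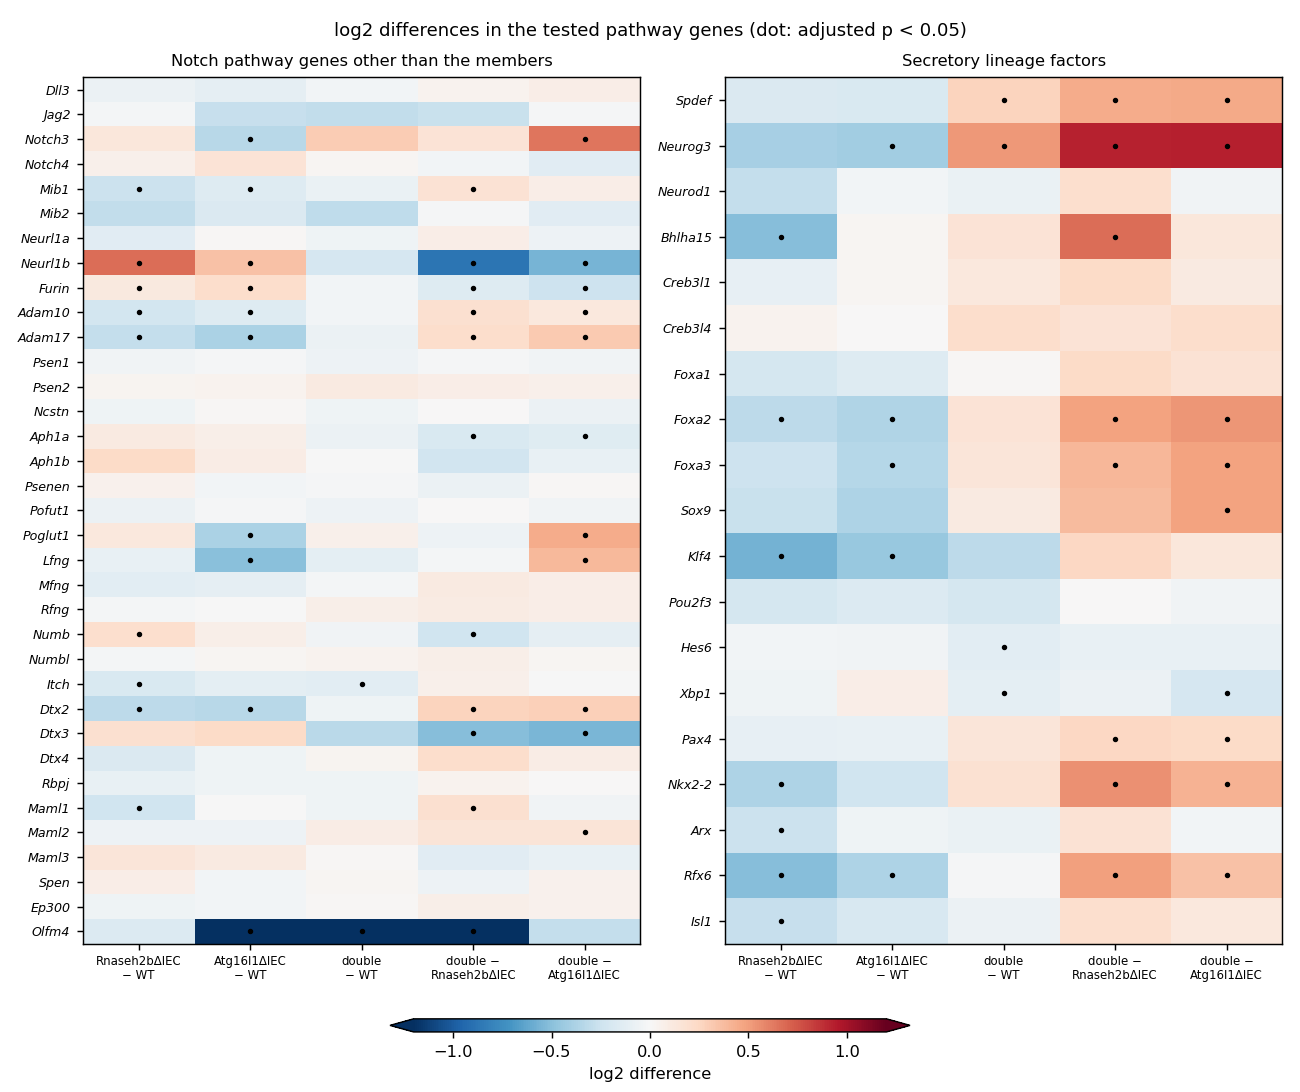
The colour gives the log2 difference (scale -1.2 to 1.2, larger differences at the end colours) of each tested gene (rows) in 5 comparisons (columns), with a dot where the adjusted p was under 0.05; double stands for Atg16l1/Rnaseh2bΔIEC. Neurl1b is red in the first 2 columns and blue in the last 2, and most secretory factors are blue in the first 2 columns and red in the last 2.

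Transcription factors of the secretory lineages, which act with or after Atoh1, were tested for 19 of 22 listed. Of these, 7 fell and 0 rose in Rnaseh2bΔIEC organoids (median -0.26, with 12.3% of all genes lower), and 5 fell and 0 rose in Atg16l1ΔIEC organoids (median -0.17, with 10.4% of all genes lower). Klf4, a factor of goblet cell maturation, fell by 0.57 and 0.46 in the respective genotypes (adjusted p = 0.00607 and 0.00849, limma). Bhlha15, which builds the secretory apparatus, fell by 0.51 in Rnaseh2bΔIEC organoids (adjusted p = 0.00431), and Rfx6, an enteroendocrine factor, fell there by 0.51 (adjusted p = 0.0112). The pair-correlated fit left 2 of the 7 calls and 0 of the 5, and without Rnaseh2bΔIEC replicate 1 or 2 the 7 became 2 or 1. With a term for lane the counts were 2 and 4 in the respective genotypes. The 5 became 3 without WT replicate 4 or Atg16l1ΔIEC replicate 3 or 4, and 8 without Atg16l1ΔIEC replicate 2.

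Neurog3, the factor that starts the enteroendocrine lineage, rose by 0.52 ± 0.13 in Atg16l1/Rnaseh2bΔIEC organoids against WT (adjusted p = 0.0203, limma) and Spdef, a goblet and Paneth cell factor, by 0.27 ± 0.076 (adjusted p = 0.0342). Hes6 and Xbp1 fell by 0.13 and 0.12 (adjusted p = 0.0277 and 0.0458, the latter named after its value was seen). None of these 4 calls was left in the pair-correlated fit, and leaving out WT replicate 1, 2, 3 or 4 or Atg16l1/Rnaseh2bΔIEC replicate 1 left 1, 0, 2, 2 or 0 calls. Against Rnaseh2bΔIEC organoids 8 of the 19 factors were higher and 0 lower (median 0.25, with 11.1% of all genes higher), among them Neurog3 (0.93, adjusted p = 0.00192), Bhlha15 (0.67, adjusted p = 0.00106) and Nkx2-2 (0.55, adjusted p = 0.00584). Against Atg16l1ΔIEC organoids 8 were higher and 1 lower, where 12.6% of all genes were higher and 12.5% lower. Neurog3 stood at 0.94 and Foxa2, an enteroendocrine and goblet factor, at 0.53 (adjusted p = 0.000617 and 0.00011, limma). The pair-correlated fit left 3 of the 8 and 3 of the 9, and without Rnaseh2bΔIEC replicate 2 the 8 became 3. Between Rnaseh2bΔIEC and Atg16l1ΔIEC only Bhlha15 of the 19 passed, where 6.81% of all genes did. Bhlha15 was lower in Rnaseh2bΔIEC by -0.53 (adjusted p = 0.0111, limma), and it was not called in the pair-correlated fit or without either Rnaseh2bΔIEC replicate. In the difference of differences 12 of 19 factors were above 0 and 0 below, where 17% of all genes were above and 18.1% below. Those above were led by Neurog3 (1.34, adjusted p = 0.000522, limma), Rfx6 (0.86, adjusted p = 0.00179) and Foxa2 (0.85, adjusted p = 4.69e-05). In the pair-correlated fit 9 of the 12 calls were left, and with a term for lane the count was 5.

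The marker genes of the mature cell types moved beside the members and are given for that reason. In Rnaseh2bΔIEC organoids, where 14.4% of all genes rose and 12.3% fell, 8 of 9 enterocyte genes rose (median 1.22), among them Lct, the lactase gene, by 1.56 and Apoa4, an apolipoprotein gene, by 1.37 (adjusted p = 0.00626 and 0.000247, limma). In the same organoids 3 of 7 goblet cell genes fell, Clca1 by 1.68 and Fcgbp by 0.64 among them (adjusted p = 6.47e-06 and 0.0169), 3 of 5 tested tuft cell genes fell, among them Dclk1 by 0.41 and Trpm5 by 0.38 (adjusted p = 0.0173 and 0.0334), and 2 of 7 stem cell genes fell, Lgr5 by 0.97 and Smoc2 by 0.41 (adjusted p = 0.000319 and 0.0187). The summed level of the enterocyte genes was 17.92 to 18.07 in Rnaseh2bΔIEC libraries and 16.85 to 17.46 in WT libraries, and that of the goblet genes 15.53 to 15.68 against 15.92 to 16.42. The pair-correlated fit left 4 of the 8 enterocyte calls, 2 of the 3 goblet calls, 0 of the 3 tuft calls and 1 of the 2 stem calls. With a term for lane the counts were 3, 4, 2 and 2 in that order. Without Rnaseh2bΔIEC replicate 1 or 2, the enterocyte calls became 4 or 3, the goblet calls 2 or 1, the tuft calls 0 and the stem calls 1, and without WT replicate 3 or 4 the enterocyte calls became 5. No Paneth or enteroendocrine gene passed by limma.

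In Atg16l1ΔIEC organoids, where 10.4% of all genes fell, all 7 stem cell genes did so (median -0.52), with Lgr5 down by 0.85 (adjusted p = 0.000244, limma) beside Olfm4. Of the goblet genes 5 of 7 fell, led by Clca1 (-0.91, adjusted p = 0.000109) and Zg16 (-0.84, adjusted p = 0.0173), and 1 of 8 enteroendocrine genes fell, Chga by 0.47 (adjusted p = 0.00776). No enterocyte, Paneth or tuft gene passed. The pair-correlated fit left 2 of 7 stem calls, 2 of 5 goblet calls and not that of Chga.

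In Atg16l1/Rnaseh2bΔIEC organoids 4 of 7 Paneth cell genes rose against WT (median 0.56, with 8.1% of all genes higher), with the protease Mmp7 up by 0.75 and the defensin Defa17 by 0.65 (adjusted p = 0.0206 and 0.0381, limma). The summed Paneth level was 15.46 to 15.86 in these libraries and 14.96 to 15.08 in WT libraries. Gip, an enteroendocrine hormone gene, rose by 0.52 (adjusted p = 0.0188), Clca1 fell by 0.50 (adjusted p = 0.0078) and, of the enterocyte genes, Alpi rose by 0.73 and Sis fell by 0.57 (adjusted p = 0.0368 and 0.0389). The pair-correlated fit left no call in any of these lists, and without WT replicate 1 or 2 or Atg16l1/Rnaseh2bΔIEC replicate 1 the Paneth calls became 1, and 2 without Atg16l1/Rnaseh2bΔIEC replicate 2. The enteroendocrine call was lost without WT replicate 1 or 2, and the 3 enterocyte calls became 1 or 0 without WT replicate 1, 2 or 3, either Rnaseh2bΔIEC replicate or Atg16l1/Rnaseh2bΔIEC replicate 1, 3 or 4. Against Rnaseh2bΔIEC organoids 6 of 7 goblet genes were higher (median 0.73, with 11.1% of all genes higher), among them Clca1 by 1.18 and Fcgbp by 0.99 (adjusted p = 0.000143 and 0.00197, limma). There 8 of 9 enterocyte genes were lower (median -1.15, with 14.4% of all genes lower), among them Lct by -1.85 and Fabp1 by -1.64 (adjusted p = 0.00274 and 0.0163). The pair-correlated fit left 5 of the 6 goblet and 6 of the 8 enterocyte calls, and the fit without Rnaseh2bΔIEC replicate 2 left 3 and 5. Against Atg16l1ΔIEC organoids all 7 goblet genes were higher (median 0.69, with 12.6% of all genes higher), as were 5 of 7 Paneth and 5 of 7 stem genes. Among these, Itln1 stood at 0.94 and Ascl2 at 0.81 (adjusted p = 0.000434 and 0.000183, limma). In the pair-correlated fit 3 of the 7 goblet, 2 of the 5 Paneth and 4 of the 5 stem calls were left. Without Atg16l1ΔIEC replicate 3 or Atg16l1/Rnaseh2bΔIEC replicate 1 or 2 the goblet calls became 4, and without Atg16l1ΔIEC replicate 3 or 4 the Paneth calls became 3. The part of these cell types in the levels of Dll1, Gfi1 and the other members was not tested.

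**Figure D4:**
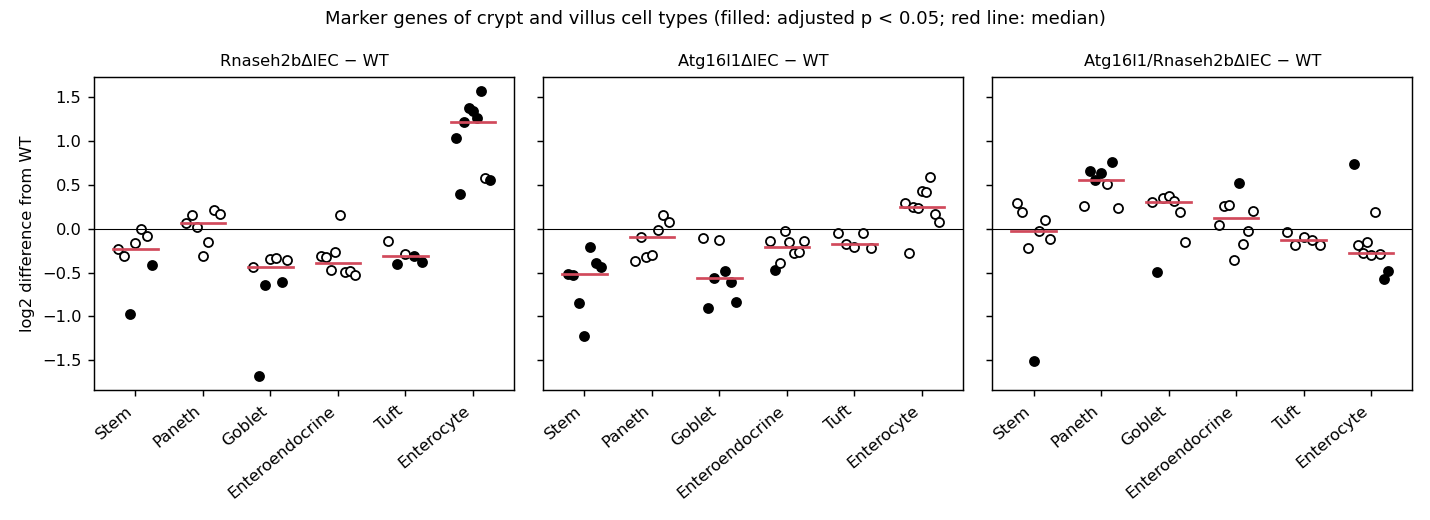
Each point is the log2 difference from WT (y axis) of 1 marker gene of a cell type (x axis) in Rnaseh2bΔIEC, Atg16l1ΔIEC and Atg16l1/Rnaseh2bΔIEC organoids (panels left to right), filled where the adjusted p was under 0.05, with a red line at the median of the list. Enterocyte genes lie high in Rnaseh2bΔIEC (median 1.22), stem and goblet genes low in Atg16l1ΔIEC (-0.52 and -0.56) and Paneth genes high in Atg16l1/Rnaseh2bΔIEC organoids (0.56).

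The tested genes with the pattern most like that of Hes1 were sought by the root mean square difference of the centred log2 levels over the 14 libraries. Clk1, a kinase of splicing factors, was nearest at 0.0805, followed by the zinc finger genes Zfp866 at 0.151 and Zfp760 at 0.158, where the median over all tested genes was 0.32 and the SD of Hes1 itself 0.312. For Dll1, added after its values were seen, the nearest were Isoc2a at 0.0656, Stab1 at 0.0678 and Ccs at 0.0698, with a median over genes of 0.214 and an SD of Dll1 of 0.198. All 14 points share the pairs and lanes described above.

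**Figure D5:**
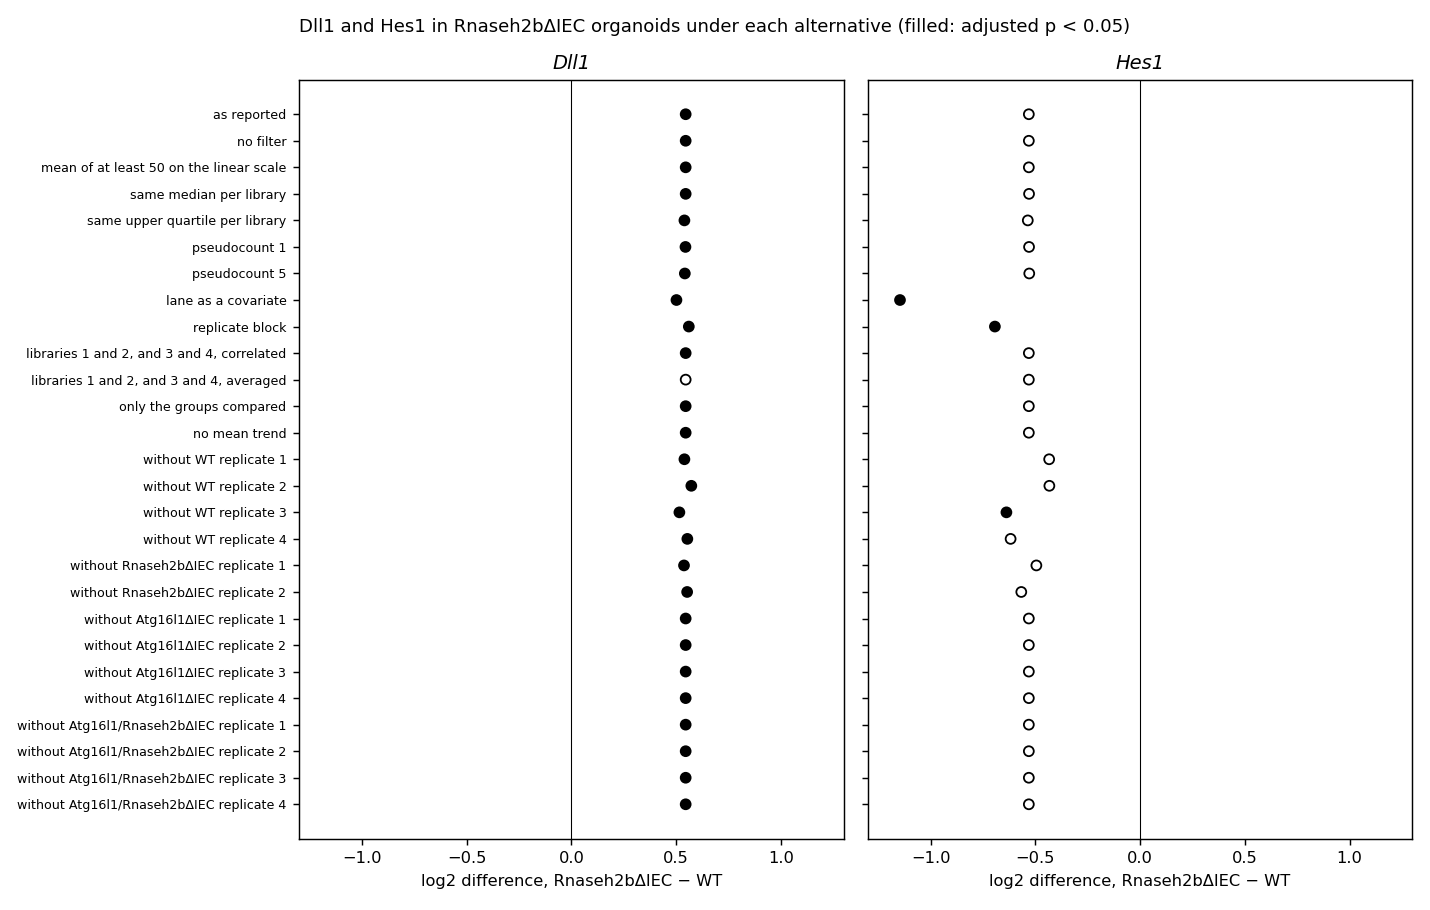
The log2 difference between Rnaseh2bΔIEC and WT organoids (x axis) of Dll1 (left) and Hes1 (right) is plotted under each way of processing or leaving out a library (y axis), filled where the adjusted p was under 0.05. Dll1 stays between 0.50 and 0.57, whereas Hes1 runs from -1.15 with lane as a covariate to -0.43 without a WT replicate of the higher pair.

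As the plot of alternatives shows, Dll1 passed in 25 of 26 alternatives for Rnaseh2bΔIEC against WT, the exception being the averaging of pairs (adjusted p = 0.134, limma), and Hes1 passed in 3 of 26. Leaving out a library of Atg16l1ΔIEC or Atg16l1/Rnaseh2bΔIEC cannot change these differences, which stayed at 0.545 and -0.531, but only their estimated spread. Averaging was the only alternative that took each pair as a single unit.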

How the data were processed

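Small intestinal organoids were sequenced as stranded mRNA libraries with 50-base reads on a HiSeq3000. According to the methods and the submitters' processing notes, reads were trimmed with cutadapt, aligned to GRCm38 with TopHat2, counted with HTSeq and normalised with DESeq2, with versions not given in the sources used here, and 2 Rnaseh2bΔIEC libraries were set aside for their read numbers. The authors deposited log2 values per gene (here -2.13 to 17.45); the transformation is not named, values of weak genes spread little, and the depth of each library is unknown, so no counting interval can be given. Library medians were 7.57 to 7.65.

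Genes averaging 10 or more once converted from log2 (log2 3.32) were tested with limma 3.58.1 in R 4.3.3, with 1 mean per genotype over all 14 libraries, a mean trend in the variance prior and Benjamini-Hochberg adjustment. On simulated data with these 12802 genes, changes of 0.25 were recovered in 26 to 51% and of 0.5 in 83 to 91% of cases over the 6 comparisons between genotypes. The simulated libraries varied independently, without the correlation within pairs, so these shares do not carry over to libraries that deviate in pairs. The difference of differences was not simulated. Alternatives changed the filter, centring, pseudocount, lane, pairing, libraries and variance prior. Gene names came from a table of symbols (18721 IDs matched). Besides the members, per comparison up to 3 genes of the pathway and secretory factor lists together past the threshold were named in each direction, and up to 2 of each marker list, by largest change, and others are marked as named after their values were seen. The members and lists were chosen with earlier results of these data known. Likeness to Atoh1 and the Hes1 to Atoh1 difference had been planned and could not be computed without a row for Atoh1. One stromal, immune and endothelial marker is not reported here.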

Additional observations from a re-analysis of the deposited data

Results flagged for a closer look

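Among 21 groups of 4 libraries (7 members in 3 genotypes), 2 held a library far from the other 3, and chance alone flags about 1 group in 20. Dll4 in Atg16l1/Rnaseh2bΔIEC replicate 2 was 7.96, where the others lay between 8.11 and 8.14. Jag1 in Atg16l1/Rnaseh2bΔIEC replicate 3 was 9.60, where the others lay between 9.43 and 9.45. For 5 members the Rnaseh2b effect was unequal between Atg16l1-intact and Atg16l1-deleted organoids by the test of the difference of differences (limma), which stood at -0.70 for Dll1, 0.42 for Dll4, 0.38 for Jag1, 0.38 for Gfi1 and 0.24 for Notch2 (adjusted p = 0.000114, 0.0169, 0.0138, 0.0016 and 0.0352). Only the value for Dll1 also passed where libraries 1 and 2, and 3 and 4, of a genotype were treated as correlated. With a term for lane the values for Dll4, Jag1 and Notch2 did not pass.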

How the results depend on the processing

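No value of a member that passed changed its sign under any alternative: of 1288 member values, 1176 kept their side of the threshold, 91 lost it, 21 gained it, 0 reversed, and 20 changed sign where neither value passed. The member counts in the order Rnaseh2bΔIEC, Atg16l1ΔIEC and Atg16l1/Rnaseh2bΔIEC against WT, Atg16l1/Rnaseh2bΔIEC against Rnaseh2bΔIEC and Atg16l1ΔIEC, Rnaseh2bΔIEC against Atg16l1ΔIEC, and the difference of differences were 2, 4, 1, 3, 3, 1 and 5. Leaving out 1 library each gave 1 to 3, 2 to 4, 1 to 2, 2 to 3, 3 to 5, 0 to 2 and 3 to 5. With the pairs correlated they were 1, 0, 0, 1, 0, 0 and 1, and with the pairs averaged 0 in all 7. A filter at 50 on the linear scale left 1 of the first, and no filter, the upper-quartile centring, the replicate block, the fit of the compared groups alone and the fit within lane 2 left 0 for Rnaseh2bΔIEC against Atg16l1ΔIEC. With lane as a covariate the counts were 2 for Atg16l1ΔIEC and 2 for Atg16l1/Rnaseh2bΔIEC against WT and 3 for the difference of differences (Dll1, Hes1 and Gfi1). For Rnaseh2bΔIEC against WT the count stayed at 2, with Hes1 in place of Gfi1. The same replicate number did not pair libraries across genotypes (r = -0.41 to 0.46 over 18 pairs, 7 of them over 0.1). With the number as a replicate block, 2 members passed between Atg16l1/Rnaseh2bΔIEC and WT: Hes1 passed between Rnaseh2bΔIEC and WT (-0.69, adjusted p = 0.0317, limma) and in the difference of differences (0.75, adjusted p = 0.0409), Notch1 passed between Atg16l1/Rnaseh2bΔIEC and WT (adjusted p = 0.0435), and Gfi1 and Dll4 against WT, Dll1 between the knockouts of 1 gene and Notch2 in the difference of differences lost their calls.

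Over all genes the counts in that order were 3424, 2450, 2063, 3262, 3218, 872 and 4499. With the pairs correlated they were 728, 384, 85, 692, 478, 61 and 1553, and with the pairs averaged 0, 1, 0, 0, 0, 2 and 0. Lane as a covariate gave 1504, 1586, 1622 and 2580 for the first, second, sixth and last. The compared groups alone gave 1260 and 2065 for Atg16l1/Rnaseh2bΔIEC against WT and Atg16l1ΔIEC, lane 1 alone 1311 for the former, and the replicate block 424 for the sixth. Leaving out 1 library gave 1135 to 3832, 1659 to 2870, 1001 to 2074, 757 to 3288, 1827 to 3470, 90 to 1105 and 2706 to 4714, and in every comparison that uses Rnaseh2bΔIEC the lowest count came without 1 of its libraries. The depth of the libraries is unknown, Rnaseh2bΔIEC rests on 2 libraries, and lane cannot be told apart from genotype in 2 of the 3 comparisons with WT. Lane also enters the difference of differences, whose genotypes are spread unevenly over the lanes.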

Other observations

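The missing row of Atoh1 belonged to a wider pattern. Atoh1 lies at chr6:64729125-64731245 (GRCm38) and is annotated with single-exon transcripts only. Of 1110 coding genes, chemoreceptors left out, that have only single-exon transcripts, 0 had a row, whereas 15705 of 19322 coding genes with a transcript of several exons (81.28%) had one. Nrarp, a feedback target of Notch, and the secretory factors Sox4 and Insm1 are single-exon genes and had no row either, while Hey2, which has up to 5 exons, had none as well. The cause was not tested.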
